A study of Homo sapiens with 8 samples.

Results

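SMAD proteins carry the signal of TGFβ and BMP receptors to the nucleus, and the genes that encode them were examined here as targets of one of their own products, SMAD3. The 8 genes SMAD1, SMAD2, SMAD3, SMAD4, SMAD5, SMAD6, SMAD7 and SMAD9, of 19105 annotated genes, were covered by 257 of the 474411 probes of a promoter array. A probe was taken when its annotated gene symbol, or the symbol in its annotated distance to a start, was that of a SMAD gene, so no measured value entered the choice. DNA immunoprecipitated with an anti-SMAD3 antibody (SMAD3 IP, Cy5) was hybridised together with DNA of a mock IP (Cy3) from A549, an established human lung carcinoma line with features of alveolar epithelium. The cells were left untreated (basal level) or were stimulated with 2 ng/ml TGFβ1 for up to 2 h by the sample labels. Each condition had 2 replicates, and the sample titles do not say whether these were separate cultures. The study's own text gives a shorter stimulation for these arrays, so the exact time behind the stimulated values is not settled here. A replicate comprised both slides of the array set, which carry different probes, so there were 8 arrays. The sample labels name the mock antibody as anti-FLAG, whereas their extraction protocol names a control IgG. Both conditions came from the same tumour line, and both ratios were taken against the mock IP of their own condition.

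SMAD2 and SMAD3 are the receptor-regulated SMADs of the TGFβ and activin branch. SMAD1, SMAD5 and SMAD9 (also called SMAD8) serve the BMP branch. After phosphorylation by their receptors they bind SMAD4, the common mediator, and the complexes enter the nucleus and bind DNA together with other transcription factors. SMAD6 and SMAD7 are inhibitory SMADs that occupy the receptors and recruit ubiquitin ligases, and SMAD7 is a textbook immediate target of SMAD3 that closes a negative feedback loop.

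The DNA-binding domain of SMAD3 and SMAD4 is known to prefer the letters CAGAC, its palindrome GTCTAGAC and GC-rich letters such as GGCGC. The promoters below are shown because the inhibitory SMADs, the common mediator and SMAD3 itself carried the probes on which the results turn. Each is the stretch of 250 bases before the outermost RefSeq start of the gene in GRCh38.p14, read 5′ to 3′ on the gene's own strand. Capitals mark CAGAC (or GTCTG on the other strand), GTCTAGAC and GGCGC (or GCGCC).
SMAD6, chr15:66701986-66702235, plus strand: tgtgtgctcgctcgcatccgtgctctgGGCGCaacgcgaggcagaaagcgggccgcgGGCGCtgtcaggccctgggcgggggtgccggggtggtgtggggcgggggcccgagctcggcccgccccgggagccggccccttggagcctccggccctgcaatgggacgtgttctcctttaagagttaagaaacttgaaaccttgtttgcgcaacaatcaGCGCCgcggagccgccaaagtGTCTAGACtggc
SMAD7, chr18:48950966-48951215, minus strand: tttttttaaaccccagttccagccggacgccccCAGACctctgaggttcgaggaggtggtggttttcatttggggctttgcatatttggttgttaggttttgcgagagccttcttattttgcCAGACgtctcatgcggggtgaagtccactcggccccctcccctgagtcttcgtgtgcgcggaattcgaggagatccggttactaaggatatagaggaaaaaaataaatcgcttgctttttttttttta
SMAD4, chr18:51029963-51030212, plus strand: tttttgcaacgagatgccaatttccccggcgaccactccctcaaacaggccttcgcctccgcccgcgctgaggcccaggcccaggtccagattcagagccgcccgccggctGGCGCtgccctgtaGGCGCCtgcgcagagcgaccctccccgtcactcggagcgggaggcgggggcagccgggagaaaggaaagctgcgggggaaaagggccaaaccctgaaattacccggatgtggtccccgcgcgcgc
SMAD3, chr15:67065352-67065601, plus strand: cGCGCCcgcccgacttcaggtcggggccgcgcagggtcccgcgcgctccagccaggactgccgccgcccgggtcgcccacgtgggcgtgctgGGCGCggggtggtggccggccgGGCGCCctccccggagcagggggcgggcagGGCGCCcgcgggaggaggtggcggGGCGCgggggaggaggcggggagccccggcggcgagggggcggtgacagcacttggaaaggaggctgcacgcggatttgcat
SMAD6 held the palindrome GTCTAGAC with its first base at -12, counted back from the start, and 64 of 35116 RefSeq promoters (0.182%) held it in a stretch of this length. SMAD7 held CAGAC at -217 and at -128, and 38% of the promoters held it on either strand. Neither SMAD4 nor SMAD3 held CAGAC or GTCTAGAC in the stretch shown. SMAD3 and SMAD7 have further RefSeq starts that are not shown. Before these, CAGAC lay at -172, -135 and -85 of 1 SMAD3 start, at -133 of another and at -193 of a SMAD7 start. The remaining starts of these 2 genes that are not shown held none. Contrasts between genes thus depend on the start taken, and the annotated starts of the array were not matched to these. GGCGC matched 3 times in SMAD4, 7 times in SMAD3, 3 times in SMAD6 and 0 times in SMAD7, and 44.5% of the promoters held it. Both strands were searched, and GGCGCC counts as 2 overlapping matches. GGCCG, a further GC-rich run, was found 4 times in SMAD6, 4 times in SMAD3, once in SMAD7 and not in SMAD4, against 44.7% of the promoters. The G and C content of the stretch was 80.8% in SMAD3, 68.4% in SMAD4, 68% in SMAD6 and 48% in SMAD7, and the median of all promoters was 58%. These matches describe letters only. The array annotation names no genome build, so probe positions are given as the annotated distance to the start and were not laid over these bases. Several probes named below, such as SMAD3 at 833 bp and SMAD4 at -567 bp, are annotated outside the 250 bases before the start.

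The SMAD genes had between 20 probes (SMAD4) and 39 probes (SMAD6), which reached from -5496 to 3269 bp of the annotated starts at a median spacing of 165.5 to 191 bp per gene. Values are log2 ratios of SMAD3 IP over mock IP after the median of each array was set to 0. Over the 257 probes, replicates of a condition correlated with r = 0.923 (basal level) and 0.915 (stimulated), and replicates of different conditions with r = 0.258 to 0.346. Over all probes tested the values were 0.896 and 0.918 within a condition and 0.204 to 0.227 between conditions. The probes share the libraries and the slides, and these correlations are descriptions. The titles do not say whether replicates of a condition shared an IP or its amplification. If they did, an effect of TGFβ1 cannot be told apart from a difference between the preparations. The p-values below rest on the spread between these replicates. The median SD between replicates was 0.202, against 0.213 for all 473007 probes tested. Only 80 of the 257 probes (31.1%) were well above background in both channels on all 4 replicates. At the other 177 at least one signal was near background, where the scanner software sets a surrogate value and the log2 ratio can fall close to 0. In chromatin from a culture, fewer cells with a bound promoter and weaker binding per cell cannot be told apart.

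At the basal level 29 of the 257 probes (11.3%) had SMAD3 IP above mock IP (limma, adjusted p under 0.05 over all probes), against 8.92% of all probes. After TGFβ1 stimulation the count was again 29 (11.3%), against 8.22% of all probes. Of the 29 at the basal level, 21 (72.4%) were also among the 29 after stimulation. On the same centred scale mock IP above SMAD3 IP was found at 39 probes at the basal level and at 46 after stimulation, against 17.4% and 18.5% of all probes. Between conditions the log2 ratio rose at 21 probes (8.2%) and fell at 35 (13.6%), against 10.5% and 12.4% of all probes. These shares were close to those of all probes. Among the 80 probes well above background throughout, 14 rose (17.5%) and 16 fell (20%), against 19% and 25.5% of all such probes, and 27 and 26 were enriched (33.8% and 32.5%), against 22.5% and 20.9%.

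The share of enriched SMAD probes was highest near the starts, as it was over all probes. Within 500 bp of the start 14 of 42 probes (33.3%) were enriched at the basal level and 10 (23.8%) after stimulation, against 21.6% and 20.5% of all probes at that distance. More than 2000 bp upstream 3 of 76 probes (3.9%) were enriched in either condition, against 4.4% and 3.8% of all probes there. Between 2000 and 501 bp upstream 4 and 6 of 45 probes were enriched (8.9% and 13.3%), against 6.6% and 6.1% of all probes. From 501 to 800 bp downstream the counts were 3 and 2 of 13 (23.1% and 15.4%, against 13.6% and 12.7%). More than 800 bp downstream they were 5 and 8 of 81 (6.2% and 9.9%, against 6.4% and 5.7%).

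**Figure D1:**
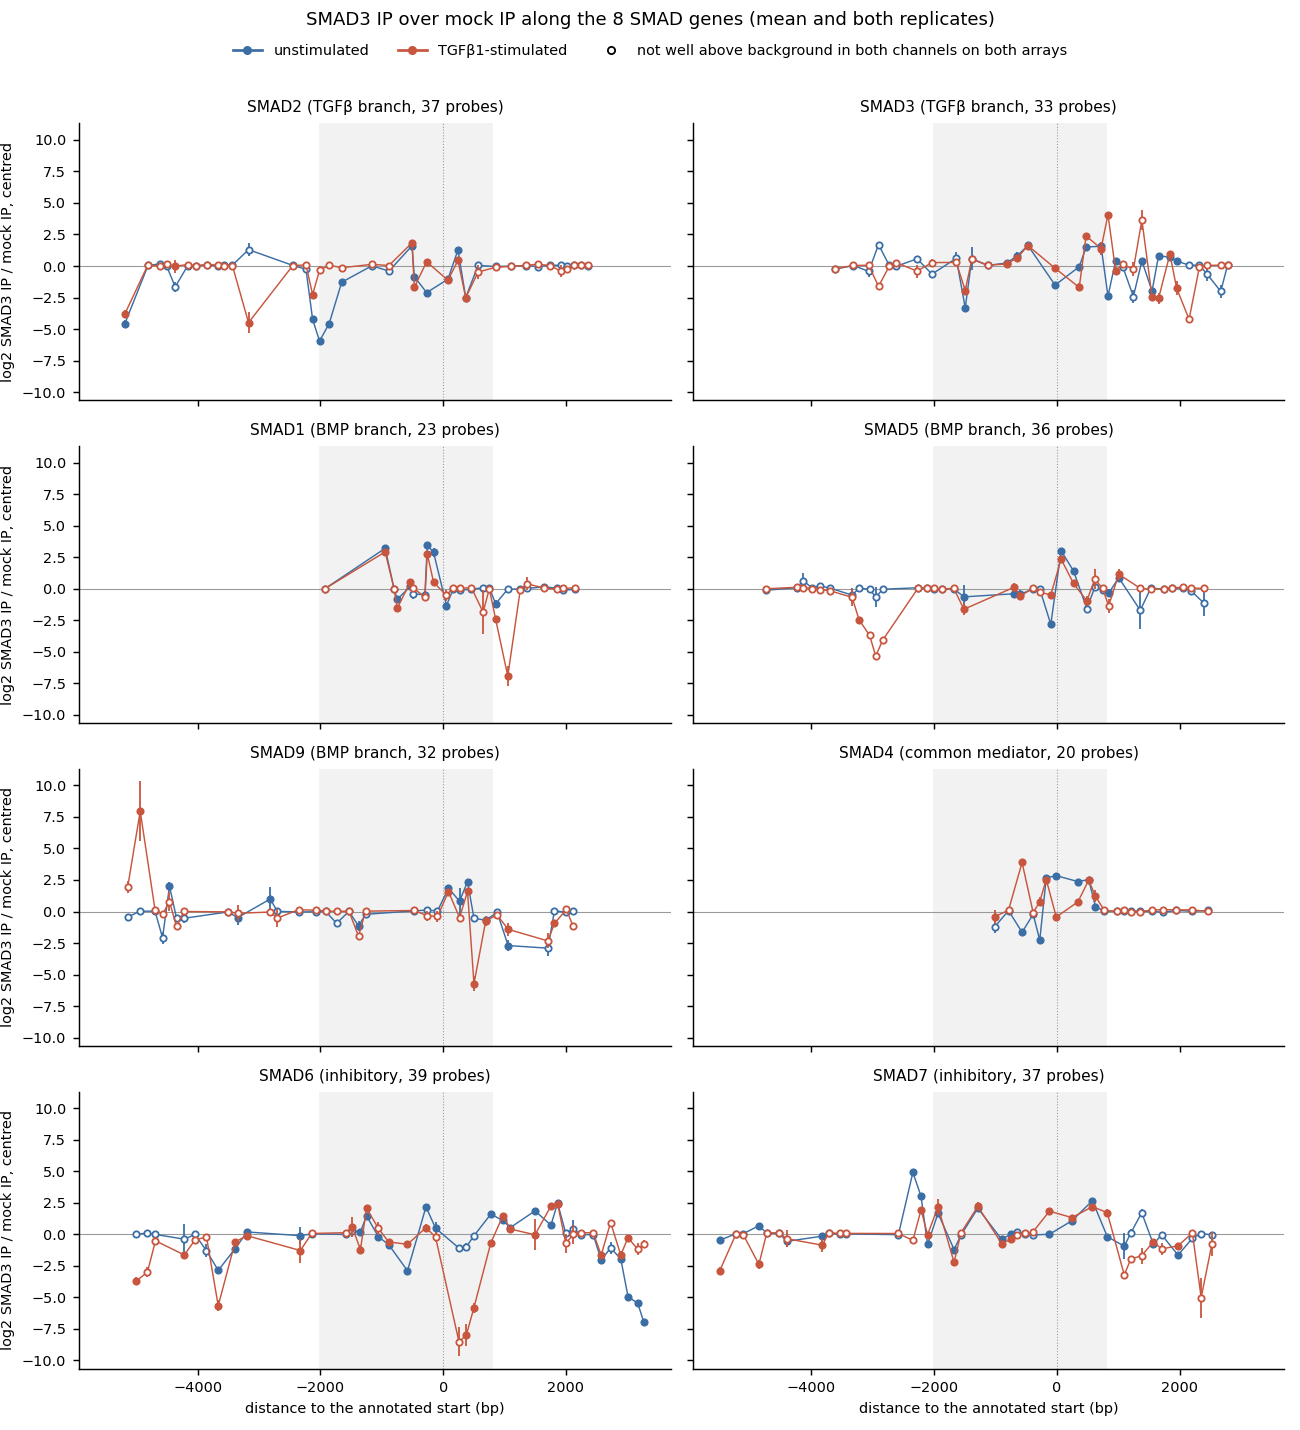
Centred log2 ratio of SMAD3 IP over mock IP (vertical axis) against the annotated distance to the start in bp (horizontal axis) for the 8 SMAD genes, with the unstimulated cells in blue and the TGFβ1-stimulated cells in red. Points are means, vertical lines join both replicates, open points were not well above background in both channels on both arrays of the condition, and the grey band is the promoter window. The deepest red points near a start are those of SMAD6 at 256 and 375 bp, and the red points of SMAD3 at 833 bp and SMAD4 at -567 bp stand above the blue ones.

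A promoter window was taken from 2000 bp upstream to 800 bp downstream of each start, and the log2 ratios of its 11 to 15 probes were averaged. SMAD4 and SMAD7 were enriched in both conditions, SMAD1 at the basal level and SMAD3 after stimulation, so 3 of 8 windows were enriched in each condition, against 20.7% of all 16299 windows at the basal level and 16.5% after stimulation. SMAD2 and SMAD4 rose after TGFβ1 (2 of 8 windows, against 20.3% of all windows), and SMAD6 and SMAD9 fell (2 of 8, against 27.5%). SMAD1, SMAD3, SMAD5 and SMAD7 did not pass the test. The median change over the 8 windows was 0.08, against -0.06 over all windows.

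**Figure D2:**
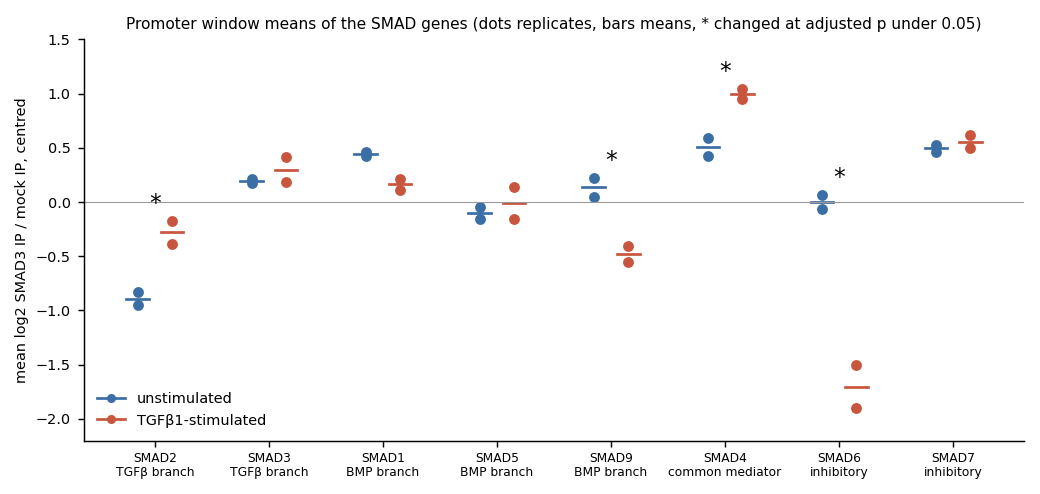
Mean centred log2 ratio of SMAD3 IP over mock IP over the promoter window (vertical axis) for the 8 SMAD genes (horizontal axis), in unstimulated (blue) and TGFβ1-stimulated cells (red). Dots are the 2 replicates, bars their mean, and an asterisk marks a change with a limma adjusted p under 0.05. SMAD4 is the highest after stimulation, at 1.04 and 0.95, and SMAD6 the lowest, at -1.90 and -1.51.

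In the order of the basal levels the windows ran from SMAD4 (0.51 ± 0.12, SD, n = 2), SMAD7 (0.50 ± 0.04) and SMAD1 (0.44 ± 0.03) over SMAD3 (0.19 ± 0.02), SMAD9 (0.14 ± 0.12), SMAD6 (0.00 ± 0.09) and SMAD5 (-0.10 ± 0.08) to SMAD2 (-0.89 ± 0.09). The replicates of SMAD4 overlapped with those of SMAD7 and SMAD1, those of SMAD9 with those of SMAD3 and SMAD6, and those of SMAD6 with those of SMAD5. After stimulation SMAD4 led (1.00 ± 0.06) above SMAD7 (0.56 ± 0.08), SMAD3 (0.30 ± 0.16), SMAD1 (0.16 ± 0.07), SMAD5 (-0.01 ± 0.21), SMAD2 (-0.28 ± 0.16), SMAD9 (-0.48 ± 0.11) and SMAD6 (-1.70 ± 0.27). The replicates of SMAD4 then lay above those of every other SMAD gene, and those of SMAD6 below them, those of SMAD1 overlapped with those of SMAD3 and SMAD5, and no test between genes was run. SMAD4 stood above 97.5% of all windows after stimulation and SMAD6 above 4.9%.

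The 2 channels moved differently behind these 4 changes. Each channel was centred on its own array median and tested alone. For SMAD6 the mock IP rose by 1.91 (standard error 0.22, limma adjusted p = 0.0169) and the SMAD3 IP moved by 0.27 (0.39, adjusted p = 0.815). For SMAD2 the mock IP fell by 1.60 (0.19, adjusted p = 0.018) and the SMAD3 IP by 0.92 (0.27), which did not pass (adjusted p = 0.214). SMAD4 was the reverse, with 0.67 in the SMAD3 IP (0.29, adjusted p = 0.408) and 0.12 in the mock IP (0.21, adjusted p = 0.748), neither of which passed. SMAD9 had 0.59 in the mock IP (0.20, adjusted p = 0.153) and 0.04 in the SMAD3 IP (0.26, adjusted p = 0.957). Over all windows 6.37% rose and 7.54% fell in the mock IP, and 0.804% and 1.74% in the SMAD3 IP.

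**Figure D3:**
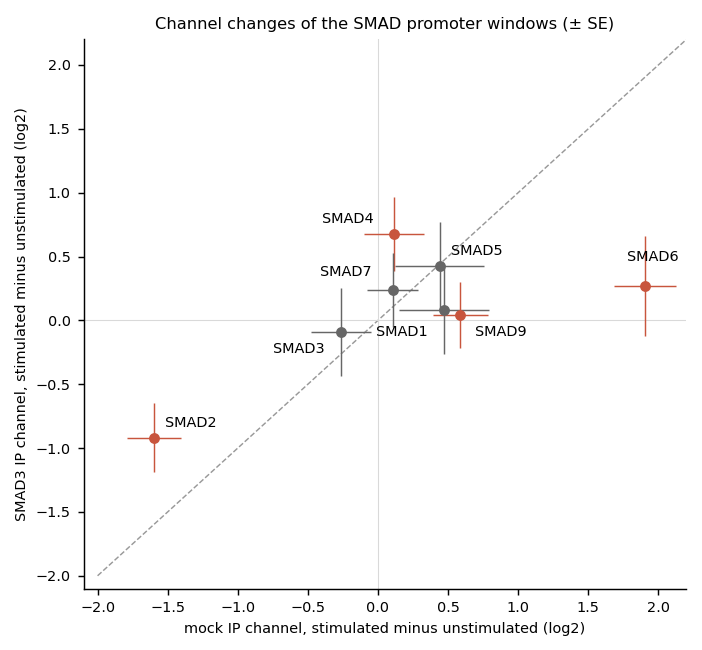
Change of the mock IP channel (horizontal axis) and of the SMAD3 IP channel (vertical axis) from unstimulated to TGFβ1-stimulated cells, as log2 of the centred signal averaged over the promoter window, with standard errors, for the 8 SMAD genes. On the dashed line both channels change equally and the ratio stays as it was, and red points changed in the ratio. SMAD6 lies at 1.91 and 0.27 and SMAD2 at -1.60 and -0.92, both away from the line along the mock axis, and SMAD4 lies at 0.12 and 0.67.

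At the level of single probes, 56 SMAD probes changed, and at 42 of them the mock IP moved more than the SMAD3 IP. Of these 42, only 18 were well above background in both channels on all 4 replicates. At the other 14 the SMAD3 IP moved more, and 12 of these were well above background throughout. Over all changed probes of the array the mock IP moved more at 68.6% of those that rose and 60.3% of those that fell, and at SMAD probes at 71.4% and 77.1%. At 11 of the 56 the mock IP moved by more than 8 on the log2 scale, a limit chosen after the values were seen. These were 28.57% of the SMAD probes that rose and 14.29% of those that fell, against 8.86% and 7.72% over all changed probes. How far unspecific DNA in the mock IP accounts for a change was not tested.

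Of the changed probes 44 are described below with 1 replicate left out in turn. The call was kept in all 4 such fits at 11 of them, which were SMAD3 at 833 bp, SMAD4 at -567 and -10 bp, SMAD6 at 775, 3011 and 3269 bp, SMAD7 at -2346 bp, SMAD2 at -1858 bp and SMAD5 at -3222, -3051 and -2835 bp. The other 33 lost the call in at least 1 fit, and all 44 kept their direction in these 4 fits. With 3 of 4 replicates the fit has fewer residual degrees of freedom. In the window fits without an unstimulated replicate every SMAD window had the same standard error (0.2246), so its own spread did not enter. A window call kept or lost there thus also reflects a changed estimate of the error. After the normexp background correction, an alternative that raises low signals, 8 of the 44 calls were kept.

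SMAD2 encodes the partner of SMAD3 in the TGFβ branch. Its 37 probes held 5 that rose and 2 that fell. The probe nearest the start, at 77 bp, had log2 ratios of -1.07 and -1.02 at the basal level and -1.19 and -1.07 after stimulation, below 0 in all replicates and with no change detected (limma adjusted p = 0.721). The highest ratio in both conditions was at -508 bp, with 1.48 and 1.73 at the basal level and 1.59 and 2.08 after stimulation (adjusted p for the change 0.645). At -270 bp the ratios were -2.31 and -1.90 and then 0.24 and 0.44, a rise of 2.44 (standard error 0.20, limma adjusted p = 0.00862) with no overlap between conditions. There the mock IP fell by 2.17 (adjusted p = 0.0106) and the SMAD3 IP moved by 0.35 (adjusted p = 0.684). The call at -270 bp was lost without either stimulated replicate (adjusted p up to 0.0642). At -471 bp the ratios fell from -0.84 and -0.85 to -1.69 and -1.68 (-0.84, standard error 0.09, adjusted p = 0.016), a call lost with any replicate left out (adjusted p up to 0.0766).

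A run of 4 neighbouring probes rose upstream of SMAD2, from -2128 to -1654 bp. At -2128 bp, where all signals were well above background, the ratios went from -4.40 and -4.05 to -2.24 and -2.28 (change 1.97, standard error 0.17, limma adjusted p = 0.00919), and the call was lost without either stimulated replicate (adjusted p up to 0.0684). The other 3 probes of the run were chosen after the values were seen. At -1858 bp the mock IP signal was 18324 and 14734 intensity units at the basal level and 52.6 and 36.6 after stimulation, where it was not well above background. After each array's channel was centred on its median, the mock IP was at least 414-fold lower after stimulation. The mock IP was well above background at only 46.9% to 60.8% of the probes of an array, so this median is a low signal. Such bounds are all given on this centred scale and hold only on it. They differ from the quotient of the printed intensities, which is smaller for the mock IP at this probe. The SMAD3 IP at this probe was 1026 and 1041 at the basal level and 91.1 and 61.6 after stimulation, also not well above background, and at least 15.9-fold lower on the centred scale. Both channels thus lost their signal together at -1858 bp, and also at -1654 bp (centred, at least 352-fold in the mock IP and 152-fold in the SMAD3 IP). After stimulation neither channel gave a measured signal at these 2 probes, so the ratio there was near 0. The calls at -2015 and -1654 bp were lost without either unstimulated replicate (adjusted p up to 0.0661), and that at -1654 bp also without either stimulated one. At -3172 bp, named after the values were seen, the mock IP rose from 44.6 and 34, with 1 of 2 arrays well above background, to 47163 and 72694, and the call of a fall in the ratio (-5.79, adjusted p = 0.0235) was lost with any replicate left out (adjusted p up to 0.139).

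The rise of the SMAD2 window (0.61, standard error 0.14, limma adjusted p = 0.00912), from -0.95 and -0.83 to -0.39 and -0.17, took in the probes at -1858 and -1654 bp but not those at -2128 and -2015 bp, which lie outside the window. With only the probes well above background in all replicates it was 0.15 (adjusted p = 0.519), and within 500 bp of the start 0.13 (adjusted p = 0.578). Without stimulated replicate 2 it was 0.50 (adjusted p = 0.0606).

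SMAD3 encodes the immunoprecipitated protein. Of its 33 probes 3 rose and 4 fell. At 833 bp the log2 ratio was -2.44 and -2.33 at the basal level and 4.16 and 3.99 after TGFβ1, a rise of 6.46 (standard error 0.12, limma adjusted p = 0.00203) and a change that was called under every alternative. Only the SMAD5 probes at -3222 and -2835 bp, which the alternatives on well-measured probes leave out, were also called wherever they were tested. The replicates of a condition differed by less than 0.2 while the conditions lay on opposite sides of 0. The SMAD3 IP rose there by 4.97 (adjusted p = 0.00369) and the mock IP fell by 1.57 (adjusted p = 0.0354). The neighbouring probes did not share it. At 720 bp the ratios were 1.67 and 1.46 and then 0.84 and 1.93, and at 957 bp 0.63 and 0.18 and then -0.68 and -0.05, and neither passed the test.

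Near the start of SMAD3 the ratios were smaller. At -29 bp they went from -1.46 and -1.57 to -0.07 and -0.28, a rise of 1.34 (standard error 0.13, limma adjusted p = 0.0123) with the mock IP at -2.62 (adjusted p = 0.0483). At -472 bp they were high in both conditions, 1.64 and 1.64 and then 1.44 and 1.80 (adjusted p for the change 0.956). At 364 bp they fell from 0.03 and -0.15 to -2.02 and -1.38 (-1.64, adjusted p = 0.0391), and at 1657 bp from 0.92 and 0.71 to -3.00 and -2.12 (-3.38, adjusted p = 0.0154). The calls at -29, 364 and 1657 bp were lost without either unstimulated replicate (adjusted p up to 0.0846, 0.199 and 0.117), and those at -29 and 364 bp also without stimulated replicate 1. The window mean was 0.21 and 0.18 and then 0.18 and 0.41, and the change of 0.10 (standard error 0.14) did not pass (adjusted p = 0.589).

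Each gene of the BMP branch had a probe within 500 bp of its start that was enriched in both conditions. This was not particular to the branch, since SMAD3 (at -472 bp) and SMAD4 (at 343 bp) had such probes too. Of the 42 SMAD probes within 500 bp of a start 9 were enriched in both conditions, and the share over all genes was not computed. In SMAD1 and SMAD5 other probes at that distance lay below 0. SMAD1, whose product is activated by BMP receptors, had the highest basal ratios at -260 bp, 3.49 and 3.45, which were 2.82 and 2.75 after stimulation. The change of -0.68 (standard error 0.10) at this probe had a limma adjusted p of 0.0279. At -946 bp SMAD1 had 3.47 and 2.94 and then 3.01 and 2.84 (adjusted p for the change 0.596). At -157 bp the ratios fell from 2.52 and 3.23 to 0.67 and 0.36 (-2.37, standard error 0.32, limma adjusted p = 0.0235), with the SMAD3 IP at -1.68 (adjusted p = 0.482) and the mock IP at 0.79 (adjusted p = 0.577). Both calls of a fall were lost with any replicate left out (adjusted p up to 0.129), and with the normexp correction the change at -260 bp was 0.58. At 53 bp, the probe nearest the start, the ratios were -1.39 and -1.26 and then -0.11 and -0.95 (adjusted p = 0.274). At 1052 bp, named after the values were seen, the mock IP rose from 63 and 36.6, not well above background, to 26219 and 30507, at least 852-fold on the centred scale, and the ratio fell to -6.13 and -7.72. That call was lost without either unstimulated replicate (adjusted p up to 0.0986). The window of SMAD1 changed by -0.28 (standard error 0.13, adjusted p = 0.118). It passed with only the probes well above background (-0.74, adjusted p = 0.00526) and over all probes of the gene (-0.52, adjusted p = 0.00239).

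SMAD5, the close relative of SMAD1 in this branch, was highest at 69 bp, the probe nearest its start. It had 2.92 and 3.11 at the basal level and 2.41 and 2.30 after stimulation (change -0.66, standard error 0.13, limma adjusted p = 0.051). At -99 bp, less than 200 bp away, the ratios were -2.92 and -2.71 and rose to -0.33 and -0.63 (2.33, standard error 0.17, adjusted p = 0.00701), so the basal profile changed sign across the start. The SMAD3 IP moved by 2.35 (adjusted p = 0.136) at this probe and the mock IP by 0.13 (adjusted p = 0.926). At 271 bp the ratios fell from 1.51 and 1.32 to 0.35 and 0.49 (-0.997, adjusted p = 0.0231). The rise at -99 bp was lost without either unstimulated replicate (adjusted p up to 0.0631) and the fall at 271 bp with any replicate left out (up to 0.104). Far upstream, 4 neighbouring probes from -3222 to -2835 bp, chosen after the values were seen, changed by -2.51 to -4.68. Their mock IP rose from not well above background by at least 27.8-fold at -3222 bp, 15.1-fold at -3051 bp and 19.4-fold at -2835 bp. At -2952 bp, where 1 of 2 unstimulated arrays was well above background, it rose by 4.99 on the log2 scale, and at 3 of the 4 the SMAD3 IP was well above background in neither condition. At -2952 bp the call was lost without either stimulated replicate (adjusted p = 0.132). The window of SMAD5, which does not hold these 4 probes, changed by 0.10 (standard error 0.15, adjusted p = 0.647), and the mean over all probes of the gene by -0.34 (adjusted p = 0.0282).

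SMAD9, the third receptor-regulated SMAD of the BMP branch, was highest at 396 bp at the basal level, with 2.38 and 2.35, and fell to 1.65 and 1.53 (-0.78, standard error 0.11, limma adjusted p = 0.0245). This call was lost with any replicate left out (adjusted p up to 0.11). At 86 bp, nearest the start, SMAD9 had 1.87 and 1.83 and then 1.53 and 1.64 (adjusted p = 0.225), enriched in both conditions. At -4937 bp the stimulated ratios were 10.32 and 5.60, whereas in unstimulated cells neither channel was well above background. These 2 replicates differed by more than 4 on the log2 scale, and the change of 7.93 (standard error 1.86) did not pass (adjusted p = 0.0787). At a probe just past 500 bp, named after the values were seen, the ratio fell from -0.41 and -0.66 to -5.11 and -6.34 (adjusted p = 0.0119) with a mock IP higher by 6.78, and the call was lost without either unstimulated replicate (adjusted p up to 0.103). The SMAD9 window went from 0.05 and 0.22 to -0.40 and -0.56 (-0.61, standard error 0.14, adjusted p = 0.0081). With the probes well above background only it changed by -0.36 (adjusted p = 0.125), without stimulated replicate 2 by -0.54 (adjusted p = 0.0582) and over all probes of the gene by 0.05 (adjusted p = 0.79).

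SMAD4, the common mediator that all receptor-regulated SMADs bind, changed in both directions within its promoter. Of its 20 probes 2 rose, both upstream, and 2 fell, at the start and downstream of it. At -567 bp the log2 ratio was -1.43 and -1.86 at the basal level and 3.93 and 3.85 after TGFβ1, a rise of 5.53 (standard error 0.20, limma adjusted p = 0.0026). The SMAD3 IP rose there by 4.86 (adjusted p = 0.0032), and the mock IP changed by -0.74 (adjusted p = 0.297). At -279 bp the ratios rose from -2.31 and -2.24 to 1.12 and 0.46 (3.06, standard error 0.28, adjusted p = 0.0105), again with a higher SMAD3 IP (1.57, adjusted p = 0.0448). At -10 bp, the probe nearest the start and the highest of the gene at the basal level, they fell from 2.90 and 2.79 to -0.58 and -0.30 (-3.28, standard error 0.15, adjusted p = 0.00343). Here the mock IP rose by 3.45 (adjusted p = 0.00719) and the SMAD3 IP moved by 0.23 (adjusted p = 0.865). At 343 bp, named after the values were seen, they fell from 2.15 and 2.60 to 0.75 and 0.79 (-1.60, adjusted p = 0.02), with the SMAD3 IP at -1.54 (adjusted p = 0.104).

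At 2 more SMAD4 probes, at -173 and 518 bp, the enrichment was about the same in both conditions. They had 2.53 and 2.80 and then 2.48 and 2.60 at -173 bp, and 2.59 and 2.47 and then 2.40 and 2.57 at 518 bp. These were named after the values were seen. The calls at -567 and -10 bp were kept with any replicate left out, but not with the normexp correction (1.76, adjusted p = 0.559, and -0.50, adjusted p = 0.769). The call at -279 bp was lost without either unstimulated replicate (adjusted p up to 0.0938) and that at 343 bp without unstimulated replicate 2 and either stimulated one (up to 0.114). The SMAD4 window rose by 0.49 (standard error 0.14, adjusted p = 0.0203), from 0.59 and 0.42 to 1.04 and 0.95. This call was lost without unstimulated replicate 2 (0.40, adjusted p = 0.143), stimulated replicate 1 (0.44, 0.0898) or stimulated replicate 2 (0.53, 0.059). Within 500 bp of the start, which leaves out the probe at -567 bp, the change was -0.37 (adjusted p = 0.115). With only the probes well above background in all replicates the window rose by 0.62 and passed (adjusted p = 0.0115).

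SMAD6 encodes the inhibitor that mainly restrains BMP signals. It had 15 changed probes of 39, the most of the family, of which 7 rose and 8 fell. At 256, 375 and 499 bp, 3 neighbours chosen after the values were seen, the log2 ratio fell to between -9.64 and -5.43 after stimulation. At 256 bp the mock IP signal was 101 and 89.4 intensity units at the basal level and 45955 and 103894 after stimulation. The SMAD3 IP at this probe was 59 and 73.8 and then 95 and 1015, and only 1 of 2 arrays was well above background in either condition. The mock IP rose by 8.97 to 9.36 on the log2 scale over the 3 probes, and the SMAD3 IP moved by 2.02 and 2.03 at the first 2, which did not pass, and rose from not well above background by at least 12.97-fold (adjusted p = 0.0258) at 499 bp. The signal of stimulated cells was thus far higher in the mock IP than in the SMAD3 IP along this stretch. The ratio calls at these probes were lost without either unstimulated replicate (adjusted p up to 0.14).

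The opposite was seen farther downstream. At 3011 bp of SMAD6 the ratios were -5.09 and -4.79 at the basal level and -0.44 and -0.11 after stimulation, a rise of 4.66 (standard error 0.20, limma adjusted p = 0.00321). The mock IP was 62803 and 51224 at the basal level and 97 and 72 after stimulation (log2 change -9.55, adjusted p = 2e-04), and the SMAD3 IP 2746 and 2734 and then 118 and 107 (-4.82, adjusted p = 0.00272). The neighbours at 3169 and 3269 bp, chosen after the values were seen, rose by 4.28 and 6.17 with the mock IP at -9.33 and -9.56. The call at 3169 bp was lost without either unstimulated replicate or stimulated replicate 1 (adjusted p up to 0.101). At 3011, 3169 and 3269 bp the rise in the ratio thus stood beside a loss of signal in both channels. It was otherwise at 1755 bp, named after the values were seen, with all signals well above background. The ratio rose there by 1.51 (standard error 0.20, limma adjusted p = 0.023), with the SMAD3 IP at 1.44 and the mock IP at -0.15. This probe is not among the 44 that were followed with 1 replicate left out.

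**Figure D4:**
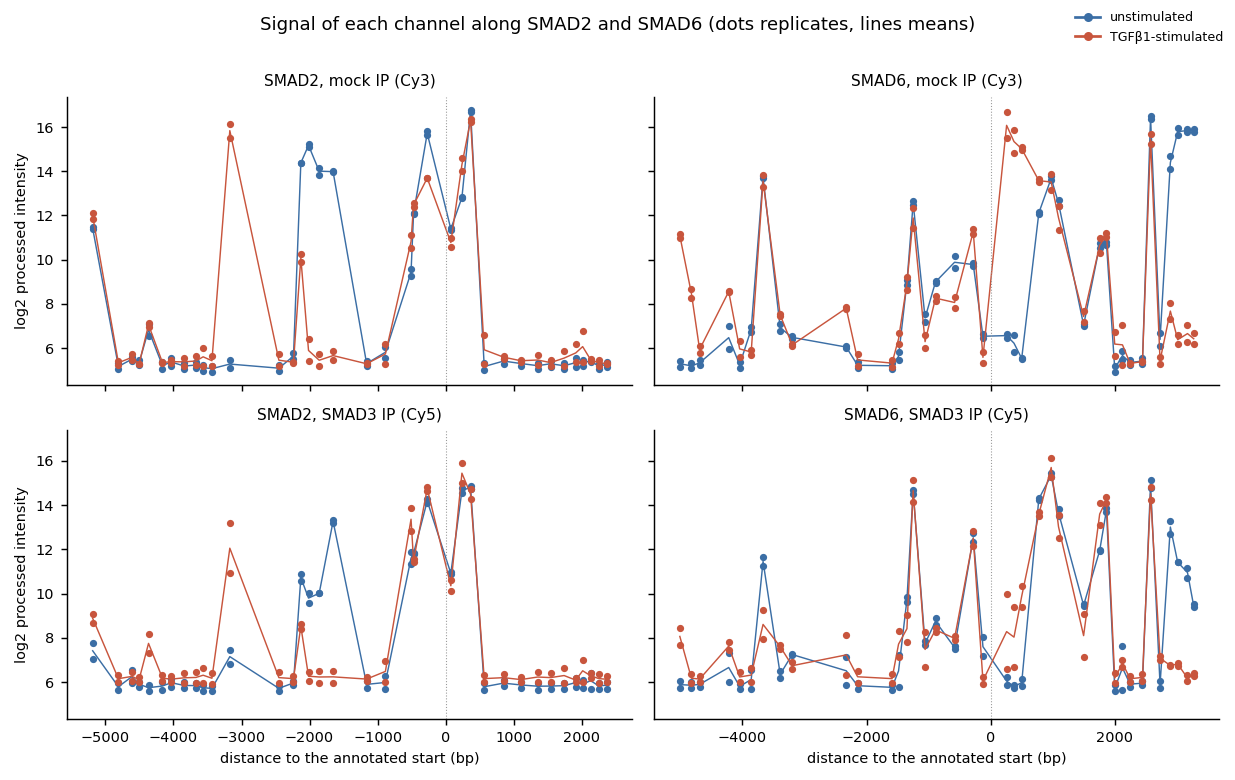
Processed intensity of the mock IP (upper row) and the SMAD3 IP (lower row) on a log2 axis against the annotated distance to the start in bp, for SMAD2 (left) and SMAD6 (right), in unstimulated (blue) and TGFβ1-stimulated cells (red). Dots are replicates and lines means. In SMAD6 the red mock signal at 256 bp stands at 45955 and 103894 intensity units against 101 and 89.4 in blue, and at 3011 bp the order is turned, while in SMAD2 the blue signal at -1858 bp is the higher one in both rows.

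At 775 bp of SMAD6, with both channels well above background on all replicates, the ratios fell from 1.67 and 1.52 to -0.75 and -0.64 (-2.29, standard error 0.12, limma adjusted p = 0.00406), and the call was kept with any replicate left out. The mock IP moved by 1.32 (adjusted p = 0.0566) and the SMAD3 IP by -0.90 (adjusted p = 0.185). At -3666 bp they fell from -3.04 and -2.67 to -6.08 and -5.23 (-2.80, adjusted p = 0.0236), a call lost without either unstimulated replicate or stimulated replicate 1 (adjusted p up to 0.146). At 1864 bp SMAD6 was highest in both conditions, with 2.43 and 2.50 and then 2.44 and 2.38 (change -0.05, standard error 0.10, adjusted p = 0.824). The probe nearest the start, at -125 bp, had 1.01 and -0.03 and then 0.15 and -0.61, which overlapped between conditions (adjusted p = 0.535). Of the 7 SMAD6 probes enriched at the basal level 5 were also enriched after stimulation, at -1249, 974, 1092, 1755 and 1864 bp, and these positions were listed after the values were seen. At -5006 and -4820 bp, chosen after the values were seen, the ratios changed by -3.74 and -3.09 with a mock IP that rose from not well above background by at least 50-fold and 8.76-fold, and both calls were lost without either unstimulated replicate (adjusted p up to 0.106).

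The SMAD6 window went from 0.07 and -0.06 to -1.90 and -1.51 (-1.71, standard error 0.17, limma adjusted p = 8.75e-05). Within 500 bp of the start, where the 3 probes with the risen mock IP weigh more, it changed by -4.50 (adjusted p = 3.92e-05). With only the probes well above background in all replicates, which leaves them out, it changed by -0.40 (adjusted p = 0.0866). With the normexp correction the SMAD6 window kept its call (-0.98, adjusted p = 0.0339), and those of SMAD2 (0.34, 0.311), SMAD4 (0.11, 0.887) and SMAD9 (-0.22, 0.361) lost it.

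SMAD7, the inhibitor of TGFβ signals, was enriched in both conditions without a change of its window, which was 0.53 and 0.46 at the basal level and 0.50 and 0.62 after TGFβ1 (0.06, standard error 0.13, limma adjusted p = 0.749). Nearest the start the picture was different. At -121 bp the ratio was 0.00 in both unstimulated replicates, at signals well above background, and 1.89 and 1.77 after stimulation, a rise of 1.83 (standard error 0.11, adjusted p = 0.00475). The SMAD3 IP moved by 0.79 (adjusted p = 0.517) and the mock IP by -1.11 (adjusted p = 0.188), and neither passed alone. With the normexp correction the rise at -121 bp was 0.83 and did not pass (adjusted p = 0.746). Without unstimulated replicate 2 the rise stood at 1.83 (adjusted p = 0.0506). Averaged over the probes within 500 bp of the start, SMAD7 rose by 0.76 (adjusted p = 0.011).

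Farther upstream the SMAD7 ratios fell. At -2346 bp the ratios were 4.95 and 4.85 at the basal level, the highest basal values of the family, and -0.45 and -0.52 after stimulation (-5.38, standard error 0.10, limma adjusted p = 0.00203). The SMAD3 IP changed there by -6.01 (adjusted p = 0.00252) and the mock IP changed by -0.69 (adjusted p = 0.329), so this fall lay in the SMAD3 IP. After stimulation 1 of 2 SMAD3 IP signals was well above background. With the normexp correction the change at -2346 bp was -1.10 and did not pass (adjusted p = 0.743). At the neighbouring -2213 bp, named after the values were seen, the ratios were 3.10 and 2.92 and then 1.74 and 2.15 (-1.06, adjusted p = 0.0479), a call lost with any replicate left out (adjusted p up to 0.211). At -1288 bp they were 1.95 and 2.18 and then 1.88 and 2.53, the highest stimulated mean of the gene (adjusted p for the change 0.833). At 821 bp they rose from -0.38 and 0.01 to 1.40 and 2.03 (1.90, adjusted p = 0.0347), which was lost with any replicate left out (adjusted p up to 0.172).

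The far upstream probes of SMAD7 at -5496 and -4855 bp changed by -2.44 and -3.07 (limma adjusted p = 0.0218 and 0.0182), with a mock IP higher by 1.71 and 2.46. The first call was lost without 3 of the 4 replicates, all but stimulated replicate 1 (adjusted p up to 0.134), and the second with any left out (up to 0.116). The probes at 1204 and 1382 bp, named after the values were seen, changed by -2.07 and -3.40 with a mock IP higher by 1.97 on the log2 scale at the first and, from not well above background, at least 4.74-fold at the second, and both calls were lost with any replicate left out (adjusted p up to 0.189). Over all its probes, from -5496 to 2526 bp, SMAD7 changed by -0.60 (adjusted p = 0.00373), opposite to the sign near the start.

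The genes whose promoter windows were most like those of the inhibitory SMADs were sought by the root mean square difference of the log2 ratio over the 4 replicates. For SMAD6 they were ZNF114 (0.0738), TCL1B (0.0868) and BCL9L (0.0985). For SMAD7 they were AGPS (0.0393), GGH (0.0487) and DAD1 (0.0521). A small distance over 4 values says only that the means were alike.

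The other parts of the pathway were followed in a list of 35 genes, of which 33 had a promoter window. Of 22 receptors, partners and regulators of SMADs 7 rose and 10 fell after stimulation, and of 11 target genes 2 rose and 4 fell, so 9 of 33 rose and 14 fell, against 20.3% and 27.5% of all windows. The median change was -0.04, against -0.06 over all windows. The mock IP moved more than the SMAD3 IP in 16 of the 23 changed windows. The share over all changed windows is not given here. Over all changed probes it was 68.6% of those that rose and 60.3% of those that fell. The list was chosen with earlier results of these data known.

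PPM1A, a phosphatase that removes the activating phosphates of SMAD2 and SMAD3, fell most. Its window was 2.38 and 2.27 at the basal level and -0.54 and -0.43 after stimulation, a change of -2.81 (standard error 0.14, limma adjusted p = 2.46e-06) without overlap. The SMAD3 IP changed by -2.76 (adjusted p = 0.0161) and the mock IP by -0.02 (adjusted p = 0.949). PMEPA1, a membrane protein that holds SMAD2 and SMAD3 away from the receptor, went from 0.28 and 0.02 to -1.32 and -1.33 (-1.48, adjusted p = 9.79e-05) with a mock IP that rose by 1.94 (adjusted p = 0.0326). LTBP3, which keeps TGFβ latent in the matrix, went from 0.23 and 0.41 to -0.86 and -0.67 (-1.08, adjusted p = 0.000509).

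The largest rises of the list were those of 2 nuclear partners and a ubiquitin ligase. TGIF2, a corepressor of SMAD complexes, went from -1.64 and -1.79 to -0.21 and -0.39 (1.41, standard error 0.14, limma adjusted p = 0.00011), with a mock IP lower in the stimulated cells (-2.36, adjusted p = 0.00953). FOXH1, a forkhead factor that guides SMAD2 and SMAD4 to DNA, went from -2.06 and -2.04 to -0.37 and -1.01 (1.36, adjusted p = 0.000938). SMURF1, a ligase that marks SMADs of the BMP branch, went from -0.75 and -0.48 to 0.50 and 0.27 (0.99, adjusted p = 0.00122). For FOXH1 and SMURF1 the SMAD3 IP moved by -0.35 and -0.33 (adjusted p = 0.772 and 0.846). The mock IP moved by -1.60 and -1.22 (adjusted p = 0.0949 and 0.286), so neither channel passed alone. TGIF2 and FOXH1 stayed below 0 in all 4 replicates, so they rose toward the median of the array. The array medians lay above 0 before centring, so a centred value just below 0 need not mean more mock IP than SMAD3 IP.

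**Figure D5:**
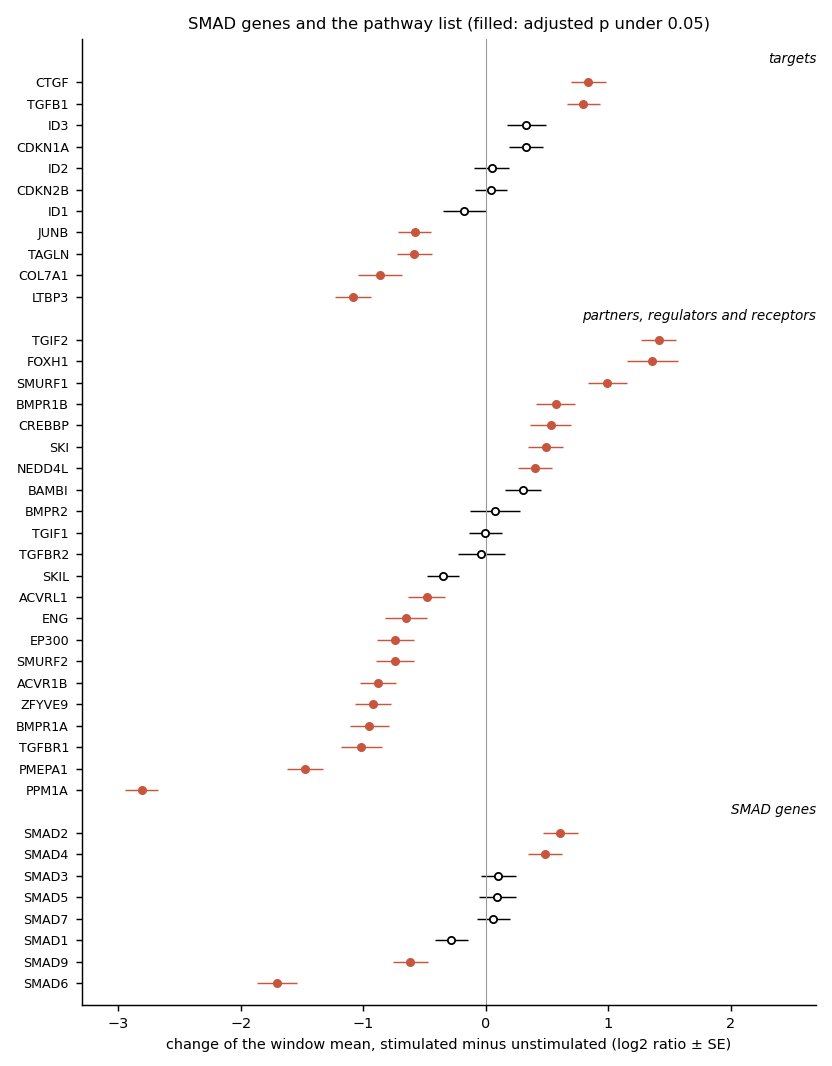
Change of the promoter window mean from unstimulated to TGFβ1-stimulated cells (horizontal axis, log2 ratio with standard error) for the 8 SMAD genes, the 22 receptors, partners and regulators and the 11 targets (vertical axis). Filled points passed limma at an adjusted p under 0.05 and open points did not. PPM1A lies farthest to the left at -2.81 and TGIF2 farthest to the right at 1.41, and SMAD6 at -1.71 is the lowest SMAD gene.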

How the data were processed

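For each array the authors deposited the spot intensity of both channels from Agilent Feature Extraction 9.5.1.1 (per the labels), whose headers name spatial and multiplicative detrending and a dye normalization. They also deposited log2 ratios, which equalled log2 of the processed Cy5 over Cy3 intensity within 3e-06. Replicates were not pooled and arrays were not scaled to each other. Control spots and 1404 outlier probes were left out. No probe was repeated on an array, so no spots were averaged. Log2 ratios were centred on each array's median (0.24 to 0.72 before). Both channels exceeded background clearly at 38.7% to 51.5% of the probes of an array, which limits the precision together with the number of arrays. All 473007 probes, and 16299 windows with at least 3 probes, were fitted with limma 3.58.1 (lmFit and eBayes, R 4.3.3), two-sided, with Benjamini-Hochberg adjustment over all and a threshold of 0.05. On simulated data with 200 of 16299 windows changed by 2 on the log2 scale, 83% were recovered and 1.78% of the calls were false. With 47300 of 473007 probes changed by 4, 86% were recovered and 6.03% of the calls were false, and with as many changed by 2, 65.7% and 5.85%. With only 200 probes changed by 2, 0% were recovered.

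Genes, lists and motifs were chosen with earlier results of these data known. For each SMAD gene the text names the probe nearest the start, the highest ratio of each condition and up to 3 largest changes among probes well above background on all 4 replicates. Other probes are marked as chosen after their values were seen. Of the pathway list the 3 highest and 3 lowest changes were named. TGFBR3 and ACVR1 were not found by symbol, and PMEPA1 was matched as TMEPAI. Alternatives were normexp (offset 50), loess, uncentred deposited log2 ratios, probes well above background, a replicate block, fits per slide, other windows and leaving out each replicate. Python 3.11.15 was used for tables and figures.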

Additional observations from a re-analysis of the deposited data

How the results depend on the processing

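The limits were the 2 replicates per condition and signals near background. With normexp the SMAD family had 0 (basal level) and 2 (stimulated) enriched probes, 2 that rose and 7 that fell. With uncentred deposited ratios 114 and 134 were enriched. With probes well above background in both channels 14 rose and 20 fell, and 17 and 18 after recentring on them (chosen after seeing the data). Leaving out 1 replicate gave 18 to 30 and 21 to 28 enriched probes, 8 to 14 that rose and 9 to 24 that fell, with 1 residual degree of freedom. Same-numbered replicates did not deviate together (r = 0.021 over probes), and with a replicate block 28 and 26 probes were enriched, 19 rose and 23 fell, and window counts stayed at 2 higher, 2 lower, 3 and 3 enriched.

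Of the windows, 0 rose and 1 fell with normexp, 1 and 1 with well-measured probes (SMAD4 and SMAD1), with and without recentring, and 1 and 1 within 500 bp. Over all probes of a gene 4 fell. Without 1 replicate 0 to 2 rose and 1 to 2 fell. Enriched windows numbered 0 and 0 with normexp, 6 and 5 with loess, 6 and 6 uncentred, 6 and 7 recentred, 5 at the basal level within 500 bp and 1 after stimulation over all probes. Leaving out 1 replicate gave 3 at the basal level and 2 to 3 after stimulation. Scaling moved the median change of all probes to 0.14 (uncentred) and that of windows to -0.18 (well-measured probes).

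Signs turned in these cases, given as log2 values. Loess gave 0.18 for stimulated SMAD2 and 0.13 and 0.33 for basal and stimulated SMAD5 windows. Uncentred values gave 0.42 for stimulated SMAD2, 0.26 and 0.51 for SMAD5 and 0.22 for stimulated SMAD9. Normexp gave 0.053 for the change of SMAD1 and 0.15 for stimulated SMAD5. Well-measured probes gave 0.024 and 0.041 for SMAD5 and 0.81 for stimulated SMAD9, and recentred 0.15 for stimulated SMAD2, 0.28 and 0.41 for SMAD5, 0.48 for stimulated SMAD6 and 1.42 for stimulated SMAD9. All probes gave -0.28 for stimulated SMAD1, -0.10 and -0.032 for SMAD3, -0.53 for basal SMAD6, -0.31 for stimulated SMAD7, -0.15 for basal SMAD9 and changes of -0.34 (SMAD5), -0.60 (SMAD7) and 0.054 (SMAD9). Within 500 bp the change of SMAD4 was -0.37, SMAD5 was at 0.0059 and 0.18 and stimulated SMAD9 at 0.34. Leaving out 1 replicate gave changes of -0.054 to 0.25 for SMAD5 and -0.0099 to 0.22 for SMAD3, and ratios of -0.16 to 0.14 for stimulated SMAD5 and -0.061 to 0.068 for basal SMAD6.

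Among probe changes normexp gave 0.81 and 0.58 for SMAD1 at -946 and -260 bp, 0.0099 for SMAD2 at 77 bp, 0.18 for SMAD3 at -472 bp, 0.71 for SMAD5 at 69 bp, 0.43 for SMAD6 at 1864 bp and 0.055 for SMAD9 at 86 bp. With loess, uncentred and recentred values SMAD2 at 77 bp was 0.048, 0.049 and 0.065, SMAD3 at -472 bp 0.10, 0.11 and 0.13, and SMAD6 at 1864 bp 0.059, 0.083 and 0.098. Leaving out 1 replicate gave -0.20 to 0.16 for SMAD3 at -472 bp, -0.00826 to 0.48 for SMAD2 at -508 bp and -0.18 to 0.47 for SMAD7 at -1288 bp. The causes were not tested. Of the other alternatives for 55 named probes, 389 kept direction and call, 149 lost the call and 2 gained it.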
